A study of Mus musculus with 6 samples.

Results

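The genes described here are 10 that mark the mesenchymal state of glioma: Cd44, Vim, Fn1, S100a4, S100a6, Lgals1, Lgals3, Anxa1, Anxa2 and Timp1. They were given as a list of symbols, and all 10 were found among the 17551 genes of the deposited count table and among the 14643 genes tested. They were measured by RNA-seq in 6 libraries of mouse neurospheres, spheres that neural stem and progenitor cells form when grown unattached, here in DMEM/F12 supplemented with N2, B27, EGF and FGF. All cultures had a C57BL/6 background. The 3 G328V libraries had the genotype label ACVR1 G328V, in which glycine is replaced by valine in a BMP receptor of type I, and titles beginning NPAC. The 3 WT libraries had the label ACVR1 WT and titles beginning NPC, and the series names their group NP. The labels do not expand these letters and name no treatment, age, promoter or further allele. Xist, an X-linked RNA, and Ddx3y, a Y-linked gene, separated the genotype groups (counts below). Sex and genotype therefore cannot be told apart for any gene here. The design text calls the 3 libraries of a group biological replicates, without saying whether they are separate animals, cultures or clones, so the p-values below measure the spread between these libraries.

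Glioma cells are described along a range of transcriptional states, some resembling neural or oligodendrocyte progenitors (proneural) and some resembling astrocytes or mesenchyme. Mesenchymal-state cells express hyaluronan receptors, fibronectin, vimentin, galectins, annexins and S100 proteins, which serve adhesion, migration and exchange with the matrix. AP-1, STAT3, C/EBP-beta and TAZ-TEAD factors are known regulators of the state, and several of its markers are also expressed by macrophages and fibroblasts.

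No member separated the genotype groups. For each of the 10 genes the G328V and WT ranges overlapped, none passed edgeR's quasi-likelihood test over 14643 genes (adjusted p = 0.997 for each), and none had an unadjusted p under 0.05. Over all genes tested, edgeR called 0% at an FDR under 0.05 and 4.06% at an unadjusted p under 0.05 (1.88% higher in G328V and 2.17% lower). The groups did not overlap for 9.70% of genes, 5.25% with G328V higher and 4.45% lower. DESeq2 called 1.05% of genes at an adjusted p under 0.05 and had 6.95% at an unadjusted p under 0.05, with 0 members in either count. The limma-voom test also called 0% of genes over all and 4.03% at an unadjusted p under 0.05, again with 0 members. Differences from G328V minus WT were positive for 4 members and negative for 6, where 49.7% and 50.3% of all genes were so, with a median log2 difference of -0.22, against -0.00389 over all genes tested. The sign of that median was not stable, since limma-voom gave 0.30 and leaving out 1 library gave -0.73 to 0.13 in edgeR. The intervals of the differences, given below, are wide, and a missed threshold does not show that the groups were alike.

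The members varied instead between libraries of 1 genotype. The library WT replicate 1 had the lowest level of 8 of the 10 members, where 22.6% of all tested genes were lowest in that library. In 4 members (S100a6, Lgals3, Anxa1 and Anxa2) it lay at least 4-fold below the next library on the log2 scale with a prior count of 2, where 3.24% of tested genes did. This library was singled out after its values were seen. The highest library lay at least 4-fold above the lowest for 9 members, against 46.3% of tested genes, and at least 16-fold for 5 members, against 28.0%. WT replicates 3 and 70A, with the same genotype label, were both among the 3 highest libraries for 7 members. Summed, the 10 genes took 0.374% of all counts in WT replicate 1, 0.529% to 0.883% in the G328V libraries, and 0.855% and 0.688% in WT replicates 3 and 70A.

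**Figure D1:**
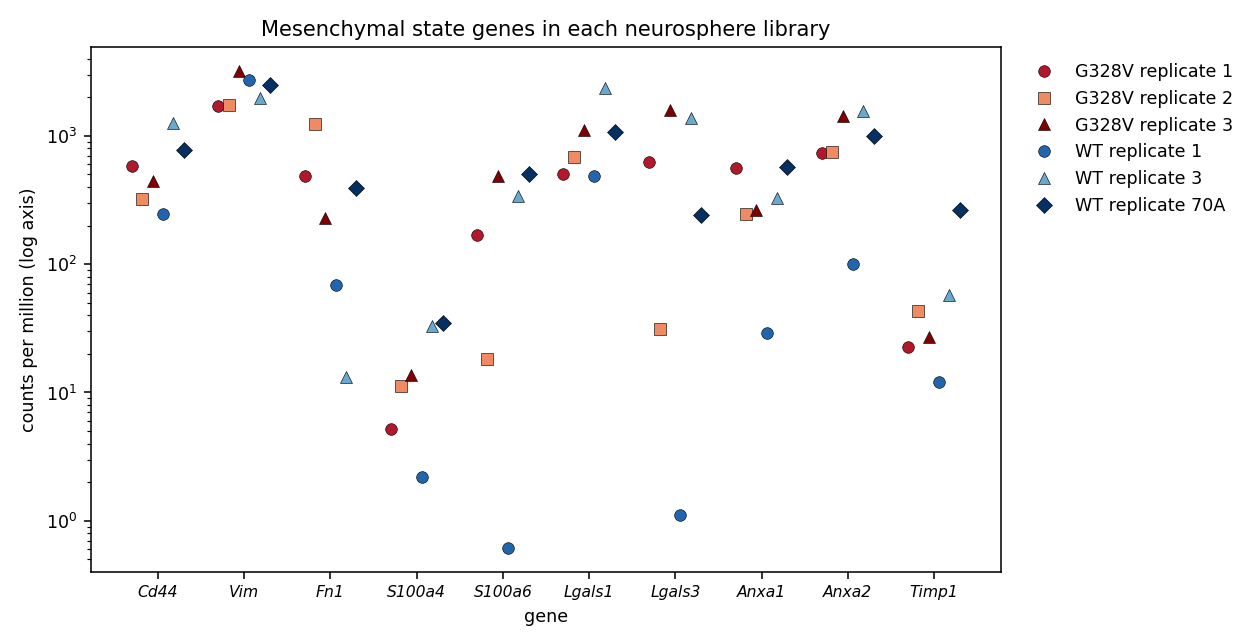
Normalised counts (CPM, log axis) of the 10 mesenchymal state genes, 1 point per library, red tones for the 3 G328V and blue tones for the 3 WT libraries. WT replicate 1 is the lowest point of 8 genes, down to 0.618 CPM for S100a6 and 1.11 CPM for Lgals3, while the red and blue points overlap for every gene.

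The genes that encode surface and matrix proteins did not share 1 pattern. Cd44 encodes the receptor for hyaluronan and lies on the minus strand of chromosome 2, from 102811141 to 102901665 in GRCm38, the build of all gene positions here. Its level was 585, 321 and 442 CPM (read counts relative to the library's total, scaled by TMM) in G328V replicates 1, 2 and 3, and 247, 1268 and 781 CPM in WT replicates 1, 3 and 70A. All 3 G328V values thus lay between the lowest WT library and the other two. The G328V mean was 449 ± 132 CPM (SD, n = 3) against 765 ± 511 CPM (n = 3) for WT. On the log2 scale the fitted difference, G328V minus WT, came to -0.77 (SE 0.59, 95% interval -2.21 to 0.67). It was -1.20 without WT replicate 1 and -0.21 without WT replicate 3.

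Fn1 encodes fibronectin, the matrix glycoprotein that integrins bind, and lies on chromosome 1 from 71585520 to 71653200, on the minus strand. It was the member with the most positive difference and had an order of libraries unlike the others. Its level was 489, 1234 and 231 CPM in the G328V libraries and 69.2, 13.3 and 391 CPM in WT replicates 1, 3 and 70A. Here WT replicate 3, the highest library for Cd44, Lgals1 and Anxa2, was the lowest, and WT replicate 70A lay above G328V replicate 3. Means were 651 ± 521 CPM for G328V against 158 ± 204 CPM for WT (SD, n = 3 each). Its log2 difference came to 2.05 (SE 1.24, 95% interval -0.96 to 5.05), with an unadjusted edgeR p of 0.148. Without WT replicate 70A it was 3.97, with groups that no longer overlapped, where 9.68% of all tested genes had G328V higher without overlap. DESeq2, chosen for this after the data were seen, then called it over all genes (3.94, adjusted p = 0.0137), with 1.55% of genes called as higher, while edgeR did not. Without G328V replicate 2, which held 1234 CPM, the difference was 1.19. The Fn1 groups also did not overlap without G328V replicate 3, with G328V higher, as for 9.44% of tested genes. The antisense gene Apol7d overlaps exons of Fn1, and it held at most 35 counts in any library. The library kit was stranded, but the sources used here do not say whether counting used strand.

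Timp1 encodes a secreted inhibitor of matrix metalloproteinases and lies on the X chromosome from 20870166 to 20874735, inside Syn1 on the opposite strand and sharing no exon with it. Syn1, a synaptic vesicle gene, was at 2.71 to 49.8 CPM, highest in WT replicate 1. Timp1 itself held 22.5, 43.4 and 26.9 CPM in G328V and 12.1, 57.1 and 263 CPM in WT replicates 1, 3 and 70A. The G328V libraries lay close together, within 1.93-fold, and the WT libraries spanned 21.7-fold, below and above them. The fitted log2 difference of -1.84 (SE 1.03, 95% interval -4.34 to 0.66) rested on WT replicate 70A, without which it was -0.18. Xist, the RNA of the inactive X chromosome, had 76093 to 128424 counts in G328V and 44 to 206 in WT. Ddx3y, on the Y chromosome, had 0 to 6 counts in G328V and 3119 to 7122 in WT. Sex and genotype thus cannot be told apart for Timp1 or for any other gene, X-linked or not.

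Vim was the steadiest member. It encodes vimentin, an intermediate filament of mesenchymal cells that neural progenitors and radial glia also express, and lies on chromosome 2 from 13573927 to 13582826. Its level was 1718, 1752 and 3189 CPM in G328V and 2712, 1987 and 2485.5 CPM in WT replicates 1, 3 and 70A, a span of 1.86-fold over all libraries. WT replicate 1, the lowest library for 8 other members, was the second highest for Vim. Of all tested genes, 81.9% had a range between libraries at least as large. Its log2 difference, -0.11, had the narrowest interval of the 10 (SE 0.33, 95% interval -0.91 to 0.70). The Vim groups did not overlap without G328V replicate 3, its highest library, with G328V lower, as for 8.17% of tested genes.

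The 2 S100 members, genes of small calcium-binding proteins of the EF-hand type, lie near each other in the S100 cluster of chromosome 3. Between the end of S100a4 and the start of S100a6 are 6837 bp. S100a4 spans 90603771 to 90606045 and S100a6 spans 90612882 to 90624181, both on the plus strand. An overlapping gene model on the same strand as S100a4, Gm42674, is not among the genes counted. S100a4 held 5.22, 11.3 and 13.7 CPM in G328V and 2.21, 32.9 and 34.6 CPM in WT replicates 1, 3 and 70A. Its G328V libraries lay above WT replicate 1 and below the other WT libraries. This gave a log2 difference of -1.21 (SE 0.96, 95% interval -3.55 to 1.13). S100a6 held 169, 18.1 and 490.3 CPM in G328V and 0.618, 341 and 507 CPM in WT. It spanned 27.0-fold within G328V and 821-fold within WT, where S100a4 spanned 2.62-fold and 15.7-fold. For S100a6 the log2 difference was -0.33 (SE 1.83, 95% interval -4.77 to 4.12). The 76 counts of S100a6 in WT replicate 1 give an exact Poisson 95% interval of 0.487 to 0.773 CPM, which covers counting error only. The members had 1.77 to 2.05 counts per Cufflinks fragment, so counts were not independent fragments and the interval is too narrow.

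Galectins bind beta-galactosides on glycoproteins of the cell surface and matrix, and the 2 members differed in how far they ranged. Lgals1, on chromosome 15 from 78926725 to 78930465, held 501, 683 and 1109 CPM in G328V and 490.4, 2340.1 and 1064 CPM in WT replicates 1, 3 and 70A. It thus remained high in WT replicate 1, close to G328V replicate 1. For Lgals1 this made a log2 difference of -0.76 (SE 0.61, 95% interval -2.25 to 0.73). It was -0.0433 without WT replicate 3 and -1.17 without WT replicate 1. Lgals3, on chromosome 14 from 47367751 to 47386160, held 631, 31.2 and 1584 CPM in G328V and 1.11, 1371 and 243 CPM in WT. Its highest library, G328V replicate 3, lay 1433-fold above its lowest, WT replicate 1, and 2.32% of tested genes had a range at least as large. Within G328V alone it spanned 50.7-fold, with replicate 2 the low library. With such a spread the log2 difference of 0.47 had an SE of 1.98 and a 95% interval of -4.34 to 5.29, the widest of the members.

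Annexins bind phospholipid membranes in the presence of calcium. Anxa1, which encodes a ligand of formyl peptide receptors, lies on chromosome 19 from 20373428 to 20390944, on the minus strand. It held 565, 245 and 263 CPM in G328V and 28.9, 329.6 and 576 CPM in WT replicates 1, 3 and 70A. Anxa2, whose protein forms a complex with S100A10 at the plasma membrane, lies on chromosome 9 from 69453620 to 69491795. It held 736, 752 and 1426 CPM in G328V and 100.2, 1550.0 and 1001 CPM in WT. For both genes WT replicate 1 lay apart from the other 5 libraries, 8.48-fold below the next library for Anxa1 and 7.34-fold for Anxa2. Their log2 differences were 0.20 and 0.14, with standard errors of 0.95 and 0.88, and 95% intervals of -2.11 to 2.51 and -2.0 to 2.27.

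The upstream sequences of the members were searched for sites of factors linked to this state and to BMP signalling. RefSeq (GRCm38.p6) gave a promoter for 8 members, all but Fn1 and Lgals1, and the 250 bases before the start were read on both strands. The AP-1 site TGANTCA was found in Anxa2 and in 6.75% of all 32851 promoters. The TEAD site GGAATG was found in Anxa1 and Timp1 and in 12.6% of promoters, the C/EBP site TTGCNNAA in Anxa1 and in 9.56%, and the STAT site TTCNNNGAA in 0 members and in 7.02%. The SMAD1/5 GC site GGCGCC was found in Lgals3 and in 9.59%. Overlaps between motifs were not counted, and a match is a run of letters, not a bound site. The 2 members with the widest range between libraries, Lgals3 and S100a6, are shown with Anxa2, the 1 with an AP-1 match, as the last 100 bases before the start, on the plus strand. The RefSeq starts used here differ from the GENCODE gene starts given above. The Lgals3 window lies wholly inside the gene span given above, and those of S100a6 and Anxa2 reach into theirs. Capitals mark the GC site in Lgals3 and the AP-1 site in Anxa2, and S100a6 has no match to mark.
Lgals3, chr14:47373760-47373859: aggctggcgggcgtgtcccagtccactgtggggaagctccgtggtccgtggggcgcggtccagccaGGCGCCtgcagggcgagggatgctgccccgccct
S100a6, chr3:90612794-90612893: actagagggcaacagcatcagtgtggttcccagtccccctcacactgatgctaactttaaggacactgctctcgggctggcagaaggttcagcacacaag
Anxa2, chr9:69453583-69453682: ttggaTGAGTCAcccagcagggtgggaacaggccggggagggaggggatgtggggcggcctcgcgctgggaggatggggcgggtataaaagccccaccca

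Lgals3 and S100a6, both lowest in WT replicate 1 and next lowest in G328V replicate 2, differ in the base composition of their promoters. Over the 250 bases, Lgals3 has 13 CpG dinucleotides and a GC content of 66.0%, and S100a6 has 3 CpG. The median of all promoters is 6 CpG and 52.4%. S100a4 and Anxa1 have 2 CpG each, and Anxa2 has 9.

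**Figure D2:**
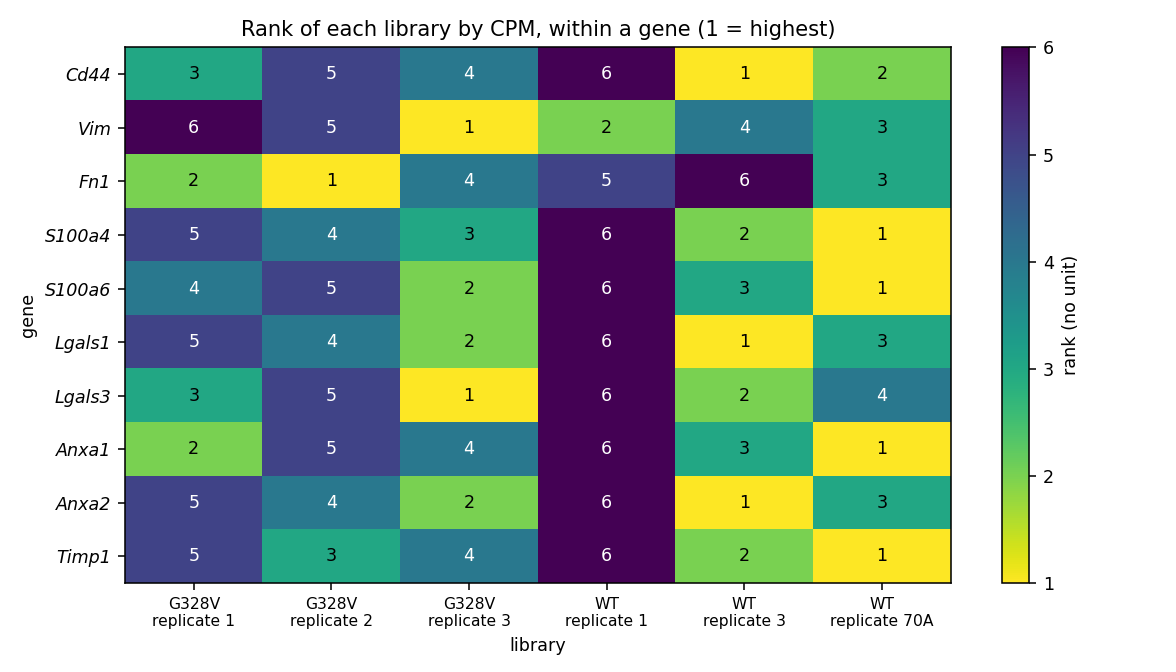
Rank of the 6 libraries by CPM within each gene, 1 for the highest and 6 for the lowest. WT replicate 1 has rank 6 for 8 genes, while Vim, with rank 2 there, and Fn1, with rank 6 in WT replicate 3, have other orders.

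Compared per kilobase of exon, Lgals1 and Vim were the most abundant members, with 1289 and 1052 CPM per kb averaged over the 6 libraries. Anxa2 followed at 641, Lgals3 at 405, S100a6 at 314, Anxa1 at 177 and Cd44 at 107 CPM per kb. Timp1 at 79.7, Fn1 at 47.7 and S100a4 at 33.4 CPM per kb were the least abundant. No pair of neighbours in this order kept it in all 6 libraries. Vim lay above Anxa2, Anxa2 above Lgals3 and Cd44 above Timp1 in 5 libraries each, while Lgals1 lay above Vim in 3. In WT replicate 1 the order was another one, with Vim at 1237 and Lgals1 at 613 CPM per kb and Lgals3 and S100a6 last, at 0.695 and 0.763. Exon lengths are those of GENCODE M21, which may not be the annotation the submitters counted on.

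Leaving out WT replicate 1 moved the differences toward lower values in G328V. Of the 10 members, 9 then had negative log2 differences, with a median of -0.66, where 45.9% of all genes tested were negative. Cd44, S100a4 and Timp1 then had groups that did not overlap, each with G328V lower, as did 11.8% of tested genes, and 0 members were higher without overlap, against 11.9%. Cd44, S100a4 and Timp1 then differed by -1.20, -1.77 and -2.40 on the log2 scale (SE 0.37, 0.48 and 0.68). These 3 members were also the ones with an unadjusted edgeR p under 0.05 (0.0197, 0.0120 and 0.0141), which 3.82% of genes had as lower. None passed edgeR's test over all genes, where 0% did (adjusted p = 0.659, 0.647 and 0.647). DESeq2, run without this library only after the data were seen, called 1.75% of genes as lower, and 5.09% were lower at an unadjusted p under 0.05. Of the members it called S100a4 and Timp1 (adjusted p = 0.0349 and 0.0460) and not Cd44 (adjusted p = 0.128). Lgals3, Anxa1 and Anxa2 changed sign, to -0.11, -0.35 and -0.41. Fn1 was the member that stayed positive, at 1.65 with a standard error of 1.41.

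**Figure D3:**
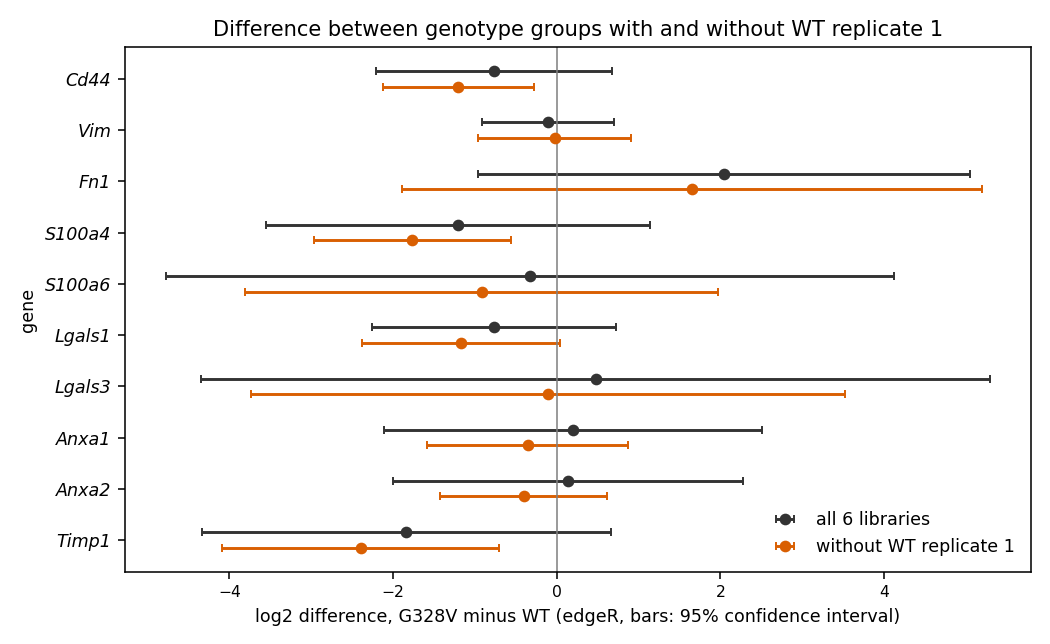
Log2 difference of G328V minus WT for each member from edgeR, with 95% confidence intervals, for all 6 libraries and without WT replicate 1. All intervals for 6 libraries include 0, and without WT replicate 1 those of Cd44, S100a4 and Timp1 lie below 0. That library was chosen after it was seen to be the lowest for 8 members.

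Relatives of the members also varied between libraries. Of 8 tested other annexins, 7 had negative differences, with a median of -0.57, and 0 passed edgeR's FDR or had an unadjusted p under 0.05. Total-count scaling turned Anxa3 from -0.13 to 0.01, so that 6 of 8 were negative, and in limma-voom Anxa3, Anxa4, Anxa7 and Anxa9 were positive, which left 4 of 8 negative. WT replicate 1 was the lowest library for 6 of the 8. Anxa3 was at 0.179 CPM there and at 84.7 to 357 CPM elsewhere. Anxa4 and Anxa7 were at 7.38 and 31.3 CPM in WT replicate 1, against at least 65.4 and 132 CPM in the other libraries. Anxa5, Anxa6 and Anxa9 differed by -0.69, -0.45 and 0.70 on the log2 scale (SE 0.44, 0.94 and 0.61). Anxa11 was low in both WT replicate 1 and G328V replicate 2, at 13.5 and 13.7 CPM. Anxa8 held 151 CPM in WT replicate 3 alone and at most 9.47 CPM in the others.

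Among 9 tested other S100 genes, 5 had positive differences, with a median of 0.25, and 0 passed the FDR. S100a5, which lies in the same cluster, had an unadjusted edgeR p of 0.0393 with a log2 difference of -4.69, but it held at most 100 counts in any library. S100a10, the Anxa2 partner, held 294, 172 and 586 CPM in the G328V libraries against 122, 303 and 174 CPM in those of WT. It was lowest in WT replicate 1, as Anxa2 was, but there lay close to G328V replicate 2 and WT replicate 70A. S100a11 was highest in G328V replicate 3, at 524 CPM, and S100a1 differed by 0.92 on the log2 scale (SE 0.94). Of 3 tested other galectins, Lgals7 was at 0.00813 CPM in WT replicate 1, 1 count, and at 30.8 CPM in G328V replicate 3. Lgals8 and Lgals9 differed by -0.34 and -0.29 on the log2 scale (SE 0.46 and 0.80).

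Of 8 tested other intermediate filament genes, relatives of Vim, 5 had positive differences and 0 passed. Nes, which encodes nestin of neural progenitors, reached 963 CPM in WT replicate 1, its highest library, against 91.2 to 273 CPM elsewhere. Lmna, which encodes nuclear lamins A and C, held 32.8 CPM in WT replicate 1 against 267 to 499 CPM elsewhere. The glial genes Gfap and Synm were at most 10.1 and 6.45 CPM, and the neuronal filament gene Ina reached 17.0 CPM in WT replicate 1 against 0.793 CPM or less elsewhere. Nefl and Nefm differed by -0.67 and 0.40 on the log2 scale (SE 1.43 and 1.57).

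The wider mesenchymal-like list was split between both directions. Of its 40 tested genes, 21 had positive and 19 negative differences, with a median of 0.04, and edgeR called 0 over all genes, with 2 higher and 0 lower at an unadjusted p under 0.05. Those were Apoe, a lipid carrier, and Mgp, a matrix protein that inhibits calcification, with log2 differences of 4.23 and 3.96. DESeq2 called 1 gene of this list over all genes, Apoe. Both were highest in G328V replicates 1 and 2 and low in G328V replicate 3, at 1.25 and 1.21 CPM. Nampt, an enzyme of NAD synthesis, ranged from 128 to 147 CPM among G328V libraries and from 46.7 to 109 CPM among WT libraries, without overlap. WT replicate 1 was the lowest library for 18 of the 40 genes.

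Regulators of the state were tested in 22 genes, with 9 positive and 13 negative differences, a median of -0.06 and 0 calls by edgeR or DESeq2 over all genes. Fos and Jun, both subunits of AP-1, had differences of opposite sign. Fos held 11.3, 30.3 and 14.5 CPM in the G328V libraries against 5.41, 8.30 and 5.69 CPM in those of WT. Jun ranged from 22.2 to 34.0 CPM among G328V libraries and from 33.8 to 194 CPM among WT libraries. The Fos groups did not overlap, and those of Jun overlapped by 1 library each. Their unadjusted edgeR p-values were 0.0230 and 0.0276. Rela, an NF-kappa-B subunit, differed by -0.57 on the log2 scale (SE 0.27). Of 6 tested targets of YAP and TAZ, 3 differences were positive, with a median of 0.22. Cyr61, a matricellular protein, held 22.9, 405 and 139.5 CPM in the G328V libraries against 11.1, 15.3 and 55.1 CPM in those of WT (log2 difference 2.80, unadjusted p = 0.0470). Axl, a receptor tyrosine kinase, held 35.9 CPM in WT replicate 1 and no less than 249.1 CPM elsewhere, and Ankrd1 was above 1 CPM in WT replicate 70A alone, at 7.20.

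Genes for proteins that bind the members gave 7 positive and 9 negative differences among 16 tested, with a median of -0.06 and 0 called. Msn encodes moesin, which links the tail of CD44 to actin, and had groups that did not overlap. It ranged from 591 to 667 CPM among G328V libraries and from 742 to 1179 CPM among WT libraries. The log2 difference of -0.67 (SE 0.26) had an unadjusted edgeR p of 0.0412 and an adjusted p of 0.997. Mmp2, a matrix metalloproteinase, reached 810.5 CPM in G328V replicate 1 against 18.4 CPM or less elsewhere.

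In their median level, though not in every gene, proneural genes ran the other way across the WT libraries. The level of a list here is the median over its tested genes of log2 CPM minus each gene's mean. The members stood at -2.05 in WT replicate 1, 1.21 in WT replicate 3 and 0.86 in WT replicate 70A, and the 12 tested proneural genes at 3.88, -2.39 and -0.42. WT replicate 1 was the highest library for 9 of the 12 and the lowest for 2, Pdgfra and Dll1, at 9.65 and 18.8 CPM. Cspg4, at 3.27 CPM there, was lower than in WT replicates 3 and 70A (3.67 and 40.7 CPM). Olig1, an oligodendrocyte-lineage factor, was at 615 CPM there and at most 1.07 CPM in any other library. In G328V the member levels were 0.11, -0.18 and 0.31 in replicates 1, 2 and 3, while the proneural levels were 1.21, 0.61 and -3.09. The narrow range of the member levels is one of medians. Single members spanned 1.82-fold (Cd44) to 50.7-fold (Lgals3) within G328V. Between genotypes, 10 of the 12 had negative differences, with a median of -1.0, and 0 passed edgeR's FDR. The sign of that median was not stable, since leaving out 1 library gave -1.34 to 1.03 in edgeR. Sox4, a factor of neural progenitors, ranged from 122 to 132 CPM among G328V libraries and from 211 to 305 CPM among WT libraries (DESeq2 adjusted p = 0.0220).

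**Figure D4:**
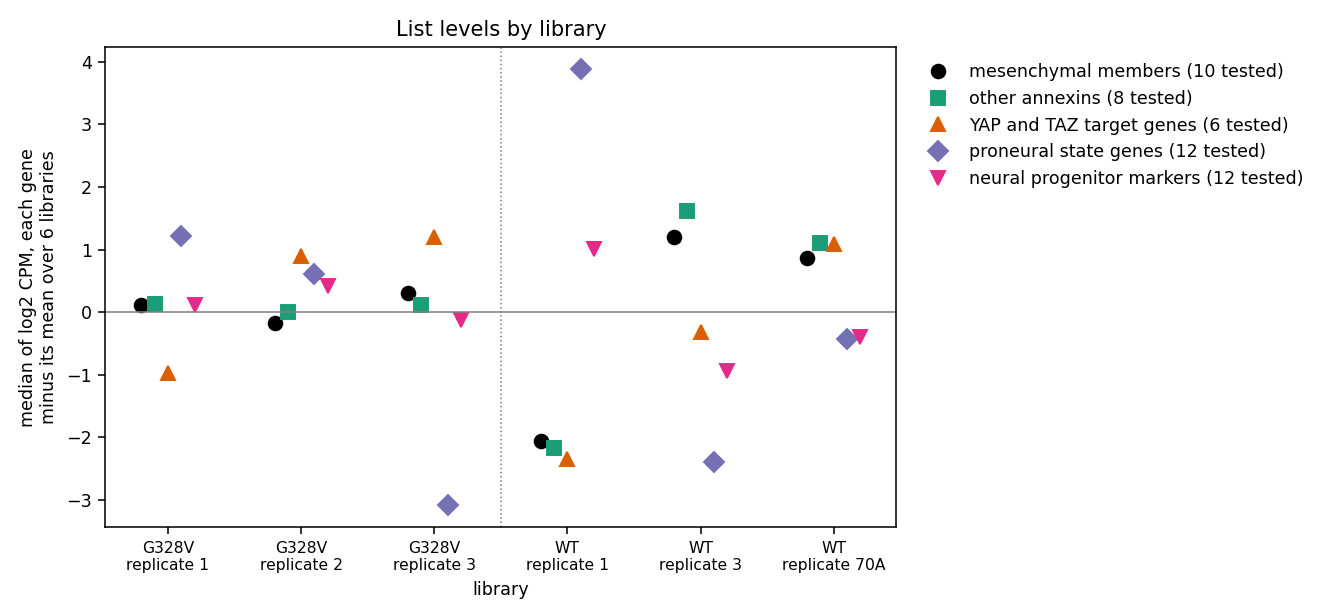
Level of 5 gene lists in each library, as the median over tested genes of log2 CPM minus the gene's mean over the 6 libraries. In WT replicate 1 the members, the other annexins and the YAP and TAZ targets lie at -2.05, -2.17 and -2.35, and the proneural genes at 3.88.

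Markers of the labelled cell type were uneven between libraries. All 12 neural progenitor markers were tested, their summed level was 834 to 4425 CPM, highest in WT replicate 1, and 1 marker was at 0 counts in G328V replicate 3. Nes and Cdh2 were at no less than 91.2 and 186 CPM in any library, and Sox2 at 134 to 237 CPM. Fabp7, a radial glia gene, reached 1313 CPM in WT replicate 1 but stood near 0 in WT replicates 3 and 70A (0.182 and 0.574 CPM). Slc1a3, a glial glutamate transporter, was likewise low in those libraries (0.00568 and 0.155 CPM) and at 0 in G328V replicate 3. Msi1, which encodes an RNA-binding protein of progenitors, was lowest in the same pair of WT libraries (0.716 and 1.22 CPM). Sox9, Prom1 and Notch1, the markers with the smallest p, had log2 differences of -1.35, 2.81 and -1.55 with unadjusted edgeR p-values of 0.0118, 0.0228 and 0.157. Of 14 myeloid markers, 9 were in the count table, with a summed level of 33.0 to 65.6 CPM in G328V and 1.94, 109 and 63.5 CPM in WT replicates 1, 3 and 70A. Cd68 and Cd14, genes that other cells also express, together made up most of the sum in every library. In WT replicate 70A they held 15.7 and 18.5 CPM. The largest single gene there was Laptm5, a lysosomal membrane gene of blood cells, at 28.8 CPM against at most 0.0218 CPM in any other library. The defining markers Ptprc, Csf1r and Itgam were at most 0.506, 1.70 and 0.261 CPM in any library and at 0, 0.00813 and 0.00813 CPM in WT replicate 1, the last 2 values being 1 count each. All 11 fibroblast and mural markers were in the table, with a summed level of 107 to 312 CPM in G328V and 9.11, 151 and 527 CPM in WT. Between 0 and 5 of them were at 0 counts in a library. Col3a1 made up 455 CPM of the sum in WT replicate 70A and Rgs5 299 CPM of that in G328V replicate 3, and Tagln was at most 0.293 CPM. For 7 endothelial markers, 6 in the table, the summed level was 1.52 to 39.6 CPM, with Cdh5 at 38.7 CPM in WT replicate 70A, Kdr at 17.4 CPM in G328V replicate 1 and Pecam1 at most 0.972 CPM. The low sums of myeloid and fibroblast markers in WT replicate 1 move with the low members there, and their part in it was not tested. In bulk RNA, fewer cells of a kind and less RNA per cell cannot be told apart.

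Across the series, total counts ranged from 115953495 to 191115532 per library. Acvr1, the labelled gene, had groups that did not overlap, with G328V above WT (log2 difference 2.29, edgeR adjusted p = 0.997, DESeq2 adjusted p = 0.0291), and gene counts cannot separate the mutant allele from the normal one. Genes with near-identical copies elsewhere, of which annexins, galectins and Vim may have processed ones, are uncertain where counting could split their reads.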

How the data were processed

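Total RNA of 6 neurosphere cultures was ribodepleted and sequenced in paired ends with a stranded kit, per the labels' protocols. The submitters' processing notes name mm10, FastQC 0.11.3, TopHat2 2.0.13 and Bowtie2 2.2.1, without roles; settings of the counting step were not stated there. The deposited HTSeq table gives raw counts per gene symbol for 17551 genes, with 0 rows that name no gene, and the authors' Cufflinks table gives estimated counts per gene, in fragments, for 23107 genes, rounded to whole numbers here for an alternative. Depths were 115953495 to 191115532 counts, so the spread between libraries limits precision more than counting does.

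The main test was edgeR 4.0.16 under R 4.3.3, with TMM scaling, filterByExpr at a minimum count of 10 and the robust legacy quasi-likelihood fit. It compared G328V with WT without covariates, and p-values were adjusted by Benjamini-Hochberg over all 14643 genes kept (FDR 0.05). Standard errors come from the F statistic. Alternatives were DESeq2 1.42.0 (adjusted p left NA for 1030 genes), limma 3.58.1 (voom), other scalings, filters and counting, a replicate block, and leaving out each library. Groups follow the genotype label. Gene models are GENCODE M21 and promoters RefSeq GRCm38.p6. The members and the 13 other lists were chosen with earlier results of these data known. Named are all members, Acvr1, and from each other list up to 3 genes with the smallest edgeR p, plus relatives with at least 10 CPM on average. Beyond this rule Apol7d, Xist, Ddx3y, Sox2, Cdh2, Fabp7, Slc1a3, Msi1, Cd68, Cd14, Laptm5 and Syn1 were named after their values were seen. So were Pdgfra, Dll1 and Cspg4. A gene that this rule would name is not reported here.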

Additional observations from a re-analysis of the deposited data

How the results depend on the processing

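Of the 926 values of named genes under the alternatives, 864 kept their direction and 62 reversed it, among them 23 of 210 for the members. No edgeR or limma-voom alternative called a gene over all genes. DESeq2 called 173. Leaving out 1 library in DESeq2, chosen after the data were seen, gave 283, 405 and 329 calls without G328V replicates 1, 2 and 3, and 727, 272 and 374 on dropping WT replicates 1, 3 and 70A. It called 2 members without WT replicate 1, 1 without WT replicate 70A and 0 otherwise. Leaving out 1 library gave 0 to 3 members of 10 whose groups did not overlap, where 16.9% to 23.7% of all genes did not. Total-count scaling shifted the median log2 difference of all genes to 0.115 and turned Anxa3 to 0.0146. In limma-voom the log2 difference was 1.10 for S100a6, 2.08 for Anxa3, 0.17 for Anxa4, 0.20 for Anxa7, -0.0788 for S100a11, -1.80 for Nefm and 0.35 for Ankrd1.

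Replicate numbers 1 and 3 occur in both groups, and same-numbered libraries had deviations correlated at r = 0.181 and 0.226. Pairs with different numbers reached about as much, 0.200 for G328V replicate 3 with WT replicate 70A and 0.166 for G328V replicate 2 with WT replicate 1. The same-numbered libraries form 2 pairs only and no label ties them, so whether they share more than a number is not known. A fit with the replicate block on those 4 libraries called 0 genes, and 1 member, Fn1, did not overlap between groups, where 32.5% of all genes did not. It gave a median of 0.69 for the members, and reversed Vim to 0.0118, S100a6 to 4.27, Anxa3 to 4.33, Anxa4 to 0.91, Anxa5 to 0.0539, Anxa7 to 0.50, Anxa11 to 0.54, S100a1 to -0.29, Lgals8 to 0.0387, Lgals9 to 0.00709, Nefm to -0.38 and Pecam1 to -0.75.

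Leaving out 1 library at a time in edgeR moved the log2 difference through 0 for these genes. Members ranged from -0.47 to 0.0453 for Vim, -1.60 to 0.40 for S100a6, -0.70 to 2.60 for Lgals3, -0.35 to 0.99 for Anxa1 and -0.41 to 0.80 for Anxa2. In DESeq2 Vim was 0.0202 and 0.00851 without G328V replicates 1 and 2, and S100a6 was 0.20 and 0.39 without G328V replicate 2 and WT replicate 70A. Without G328V replicate 3, Lgals3 was -0.71 and Anxa2 -0.26, and without G328V replicate 1, Anxa1 was -0.31. Without WT replicate 1, Lgals3, Anxa1 and Anxa2 were -0.11, -0.34 and -0.40. Relatives ranged from -1.17 to 0.66 for Anxa3, -1.40 to 0.085 for Anxa6, -0.90 to 0.59 for Anxa7, -1.22 to 0.81 for S100a11, -1.38 to 2.96 for Lgals7, -1.47 to 0.91 for Nes, -6.32 to 5.57 for Ina, -3.91 to 0.60 for Nefl, -3.46 to 0.98 for Nefm and -0.0261 to 0.93 for Lmna. Other genes ranged from -0.80 to 5.59 for Mmp2, -4.47 to 7.94 for Ankrd1, -9.85 to 2.44 for Olig1, -2.19 to 0.0597 for Notch1, -1.67 to 2.36 for Csf1r, -3.91 to 1.39 for Col3a1, -0.32 to 0.89 for Pecam1 and -1.59 to 2.94 for Kdr. The cause of these reversals was not tested.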
